A study of Mus musculus with 8 samples.

Results

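Binding of SRSF3 to the RNA of its own gene and of 4 relatives, Srsf1, Srsf2, Srsf6 and Srsf7, was read from iCLIP of neonatal mouse cardiomyocytes. Each gene was taken as a fixed window on its own strand of the mm9 genome: Srsf1 on chromosome 11 from 87860800 to 87867500 (plus strand), Srsf2 on chromosome 11 from 116711000 to 116714600 (minus strand), Srsf3 on chromosome 17 from 29169500 to 29180500 (plus strand), Srsf6 on chromosome 2 from 162757000 to 162763500 (plus strand) and Srsf7 on chromosome 17 from 80599200 to 80607200 (minus strand). These are 5 regions of a series in which 237938 strand-specific windows of 10 kb held a cDNA. The cells came from newborn C57BL/6 mice, 2 replicates were analysed, and both had received 15 µg of modified mRNA for SRSF3 fused to green fluorescent protein (GFP) with 21 µL of Lipofectamine. UV light of 254 nm (100 mJ) linked the protein to RNA 48 h later, an antibody against GFP drew it out, and each cDNA end marked a nucleotide next to a crosslink. The 6 heart samples of the series, from cardiomyocyte-specific Srsf3 knockout and control mice, are not analysed here.

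SR proteins pair an RNA recognition motif with a tail rich in arginine and serine, and they guide the choice of exons and the export of mRNA. Many of their genes limit their own output: when the protein is plentiful, a highly conserved exon with an early stop codon, often called a poison exon, is spliced in, and the RNA is destroyed by nonsense-mediated decay. SRSF3 is the smallest of the family. It is known to promote such splicing of its own RNA and to take part in mRNA export together with SRSF7, its closest relative. SRSF1 is the founding member of the family, and both SRSF1 and SRSF2 are needed for normal heart function in mice. SRSF6, also called SRp55, is a splicing regulator.

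All 5 genes had cDNAs on their sense strand in both replicates, and together they held 422 cDNAs of replicate 1 and 1120 of replicate 2. These were 0.0518% and 0.0497% of libraries of 815414 and 2253688 cDNAs. A further set of values, called the other libraries below, is what the authors' merged track holds beyond the replicates: 1138453 cDNAs pooled from 3 further libraries, with no track for each. No sample label covers these 3 libraries, so their cells, transfection and batch are not given here. In the windows of the 5 genes the other libraries held 1113 cDNAs, 0.0978% of the pool. The transfected mRNA encodes SRSF3 as well, so cDNAs in the Srsf3 window may come from it, from the cells' own Srsf3 RNA, or from both. A cDNA count follows the amount of RNA as well as its binding, and more RNA and more binding per RNA cannot be told apart. No control immunoprecipitation is analysed here.

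Srsf3, the gene of the precipitated protein itself, had 132 sense cDNAs in replicate 1 and 408 in replicate 2. This was 162 and 181 cDNAs per 1000000 cDNAs of the library (CPM), the highest total of the 5 windows in both replicates. Srsf2 had 103 and 231 cDNAs, 126 and 102 CPM. Srsf1 had 65 and 172 cDNAs, 79.7 and 76.3 CPM. Srsf7 followed with 59 and 176 cDNAs (72.4 and 78.1 CPM), and Srsf6 had 63 and 133 cDNAs (77.3 and 59.01 CPM). The replicate values of Srsf1, Srsf6 and Srsf7 overlapped, and those of Srsf3 and Srsf2 stood above them in both replicates.

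Per kb of window the order changed, because the windows differ in length from 3601 nt for Srsf2 to 11001 nt for Srsf3. Srsf2 was the most densely covered, at 35.1 CPM per kb in replicate 1 (exact 95% Poisson interval 28.6 to 42.5) and 28.5 in replicate 2 (24.9 to 32.4), a mean of 31.8 ± 4.68 (SD, n = 2). Srsf3 had 14.7 and 16.5 CPM per kb, a mean of 15.6 ± 1.23 (SD, n = 2). Srsf1 had 11.9 and 11.4, a mean of 11.6 ± 0.358 (SD, n = 2). Srsf6 had 11.9 and 9.08, a mean of 10.5 ± 1.98 (SD, n = 2), and Srsf7 had 9.04 and 9.76, a mean of 9.40 ± 0.507 (SD, n = 2). Srsf2 was therefore 2.04 times as dense as Srsf3 and 3.38 times as dense as Srsf7. The replicate values of Srsf2 and Srsf3 did not overlap, nor did those of Srsf3 and Srsf1. Srsf1 and Srsf6 overlapped, and so did Srsf6 and Srsf7, whose order turned round between the replicates. The windows hold introns as well as exons, so these densities are averages over both. The share of exons differs between the genes. In GENCODE M21, on another build, exons of any transcript covered 2958 nt for Srsf2 (window 3601 nt) and 7899 nt for Srsf3 (11001 nt). They covered 5710 nt for Srsf1 (6701 nt), 4810 nt for Srsf6 (6501 nt) and 3550 nt for Srsf7 (8001 nt). Densities per kb of exon were not computed, and their order may differ from this one.

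**Figure D1:**
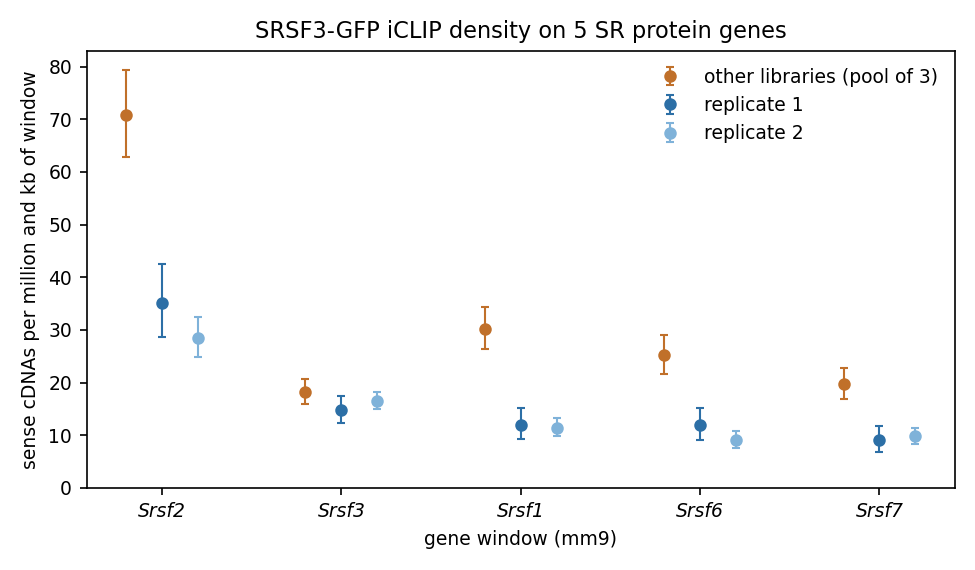
Sense cDNAs in CPM per kb of window (y axis, from 0) for each gene (x axis, ordered by the mean of the replicates), with 1 point for the other libraries, replicate 1 and replicate 2 and bars for exact 95% Poisson intervals. Srsf2 is the most densely covered at 35.1 and 28.5 in the replicates, and the point of the other libraries lies above both replicates in all 5 genes, with an interval that overlaps those of the replicates for Srsf3 (18.2 against 14.7 and 16.5) and not for the other 4.

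Against the rest of the genome all 5 genes lay far up the range. When both strands were tiled in windows of a member's own length, 213 of 403954 windows with a cDNA equalled or exceeded Srsf2 in the lower of the replicates, 0.0527%. For Srsf3 it was 202 of 226246 windows, 0.0893%. Srsf1 was equalled or exceeded by 0.187% of windows, Srsf7 by 0.260% and Srsf6 by 0.297%. The median window of each of these lengths had 0 cDNAs in its lower replicate. This ranking is a description, since the genes were picked with results of these data known. The tiled windows were not fitted to genes, and any with a cDNA counted, so this is not a rank among expressed genes.

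Signal lay almost wholly on the strand of the gene. Most of the exceptions lay in the Srsf1 window, where 2 cDNAs of replicate 1 and 9 of replicate 2 were antisense, shares of 2.99% and 4.97% (exact binomial intervals 0.364% to 10.4% and 2.30% to 9.23%). Srsf2 and Srsf3 each had 0 antisense cDNAs in replicate 1 and 2 in replicate 2, which was 0.858% of the window for Srsf2 and 0.488% for Srsf3. Srsf6 and Srsf7 had 0 in both. The upper ends of the exact binomial intervals were 5.69% and 2.74% for Srsf6 and 6.06% and 2.07% for Srsf7. Intervals and limits here cover counting error only. The 1 kb before each window held 0 sense cDNAs in either replicate for every gene, and the 1 kb after it held 2 (Srsf7) to 13 (Srsf3), summed over the replicates.

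The profiles along the genes differed in how crowded they were. On Srsf3 and Srsf7 the cDNAs lay mostly in a short part of the window. On Srsf2 and Srsf6 they were spread more widely, and Srsf1 lay between. These are shares of the whole window, and the share of introns in it differs between the genes. How far introns set this contrast was not tested. In the text below, distances are counted in nt from the 5′ end of the window along the gene's strand.

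The middle 50% of the Srsf3 cDNAs, from the lower to the upper quartile, ran from 6682 to 7303 nt in replicate 1 and from 6653 to 7319 nt in replicate 2. These stretches of 622 and 667 nt are 5.65% and 6.06% of the window. Of the 111 bins of 100 nt in the window, 6 held 50% of the cDNAs in each replicate. The strongest bin of replicate 1 began at 7200 nt and held 19 cDNAs of replicate 1 and 50 of replicate 2, or 23.3 CPM in replicate 1. In replicate 2 this bin was tied with that from 6900 nt, which held 16 cDNAs of replicate 1 and 50 of replicate 2. Counts over the 100 nt bins of Srsf3 had a Pearson r of 0.93 between the replicates, the highest of the 5 genes. This r is across bins of 1 gene, which are not independent, and is given as a description.

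A 500 nt stretch was chosen in each gene as the strongest in replicate 2 and then read in replicate 1. In Srsf3 it lay from 29176339 to 29176838 on chromosome 17 (plus strand, mm9). It made up 4.55% of the window and held 65 of the 132 cDNAs of replicate 1, 49.2% (exact binomial interval 40.4% to 58.1%). Per nt it was 20.4 times as dense as the rest of the window in replicate 1. In Srsf7 the stretch lay on chromosome 17 from 80603986 to 80604485 (minus strand) and held 22 of 59 cDNAs of replicate 1, 37.3% (25.0% to 50.9%), 8.92 times the density of the rest. In Srsf1 it lay on chromosome 11 from 87862631 to 87863130 (plus strand) and held 26.2% of the replicate 1 cDNAs (16.0% to 38.5%) in 7.46% of the window, 4.39 times the density of the rest. Srsf2 had 20.4% (13.1% to 29.5%) between 116713140 and 116713639 on chromosome 11 (minus strand), and Srsf6 had 12.7% (5.65% to 23.5%) between 162760138 and 162760637 on chromosome 2 (plus strand). In Srsf2 and Srsf6 these intervals included the share of the window that the stretch covers, 13.9% and 7.69%, and the density ratios were 1.59 and 1.75.

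**Figure D2:**
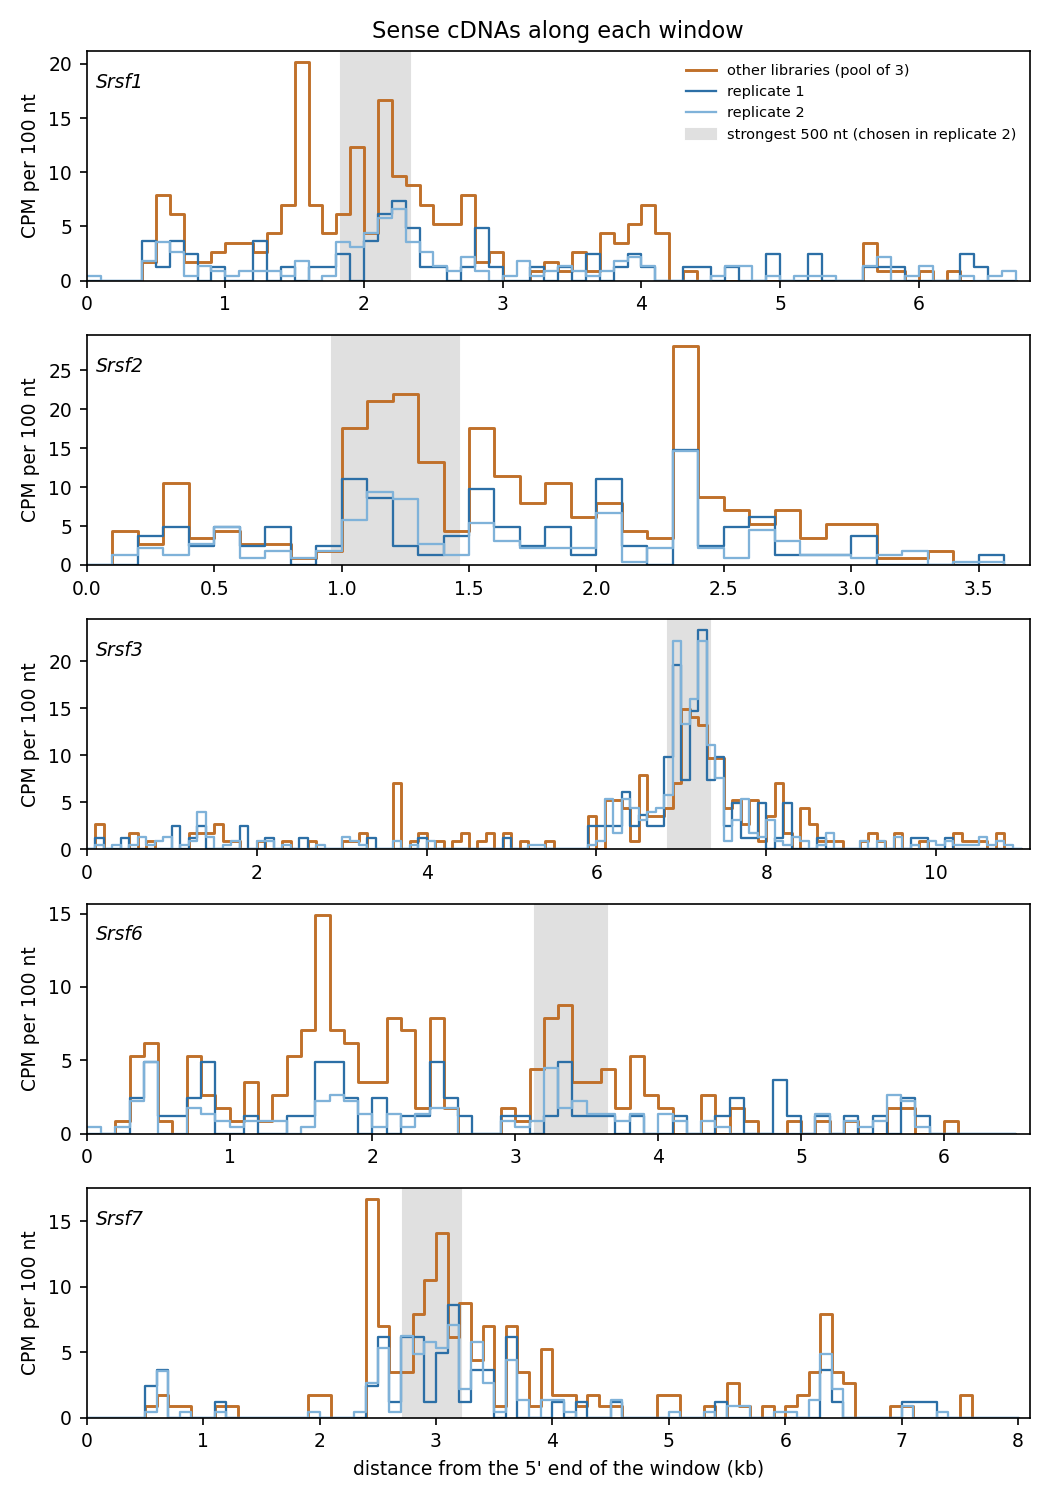
Sense CPM in bins of 100 nt (y axis, own scale for each gene) against the distance from the 5′ end of the window in kb (x axis), with lines for the other libraries, replicate 1 and replicate 2 and grey for the strongest 500 nt of replicate 2. Srsf3 and Srsf7 show a block of signal within the window, near 7 kb and 3 kb, while the signal of Srsf1, Srsf2 and Srsf6 is spread more widely.

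Srsf7 had a main block and weaker ones apart from it. The middle 50% of its cDNAs ran from 2773 to 3642 nt in replicate 1 and from 2796 to 3670 nt in replicate 2, 10.9% of the window in each. The strongest bin, at 3100 nt, held 7 and 16 cDNAs in replicates 1 and 2. Of its 81 bins of 100 nt, 30 had no cDNA in any of the 5 libraries, against 24 of 111 for Srsf3, 10 of 68 for Srsf1, 13 of 66 for Srsf6 and 2 of 37 for Srsf2. Whether these bins can be mapped, or lie in introns or beyond the ends of the gene, was not tested.

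On Srsf2 the middle 50% of the cDNAs covered 35.9% of the window in replicate 1 and 34.6% in replicate 2. Its strongest bin, from 2300 nt, held 12 and 33 cDNAs, 14.7 and 14.6 CPM. That bin is not in the strongest 500 nt stretch, so this short gene had separate high points. Srsf1 spread over 30.5% and 24.5% of its window, with a strongest bin at 2200 nt (6 and 15 cDNAs). Srsf6 spread over 32.6% and 34.7%, and its strongest bin, at 400 nt, held only 4 and 11 cDNAs. Pearson r between the replicates over the bins was lower for these 3 genes, 0.78 for Srsf2, 0.67 for Srsf1 and 0.54 for Srsf6, against 0.89 for Srsf7. Such an r also depends on the number of cDNAs and on how crowded they are, so a lower r is not in itself a poorer match.

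Single positions were rarely hit more than once. In the 5 windows 393 positions of replicate 1 and 961 of replicate 2 were listed, and 4 of them had at least 2 cDNAs in both replicates. Of these 4, 3 were in Srsf3 and 1 in Srsf2. The 3 positions of Srsf3 lay at 29176794, 29176672 and 29176803 on chromosome 17, all inside the strongest 500 nt. The first had 2 cDNAs in replicate 1 and 8 in replicate 2, and the other two had 2 in each replicate. In Srsf2 position 116714065 on chromosome 11 had 2 and 2 cDNAs, 116712216 had 1 and 5, and 116712522 had 1 and 2. In the other genes no position had more than 1 cDNA in its lower replicate, and 10 positions of Srsf1, 3 of Srsf6 and 7 of Srsf7 were tied at that value. Taken by their sum and then by coordinate, the first 3 of Srsf1 were 87864705 with 2 and 1 cDNAs and 87861394 and 87862622 with 1 and 1. Those of Srsf6 were 162758806 and 162760231 with 1 and 2 and 162758788 with 1 and 1. Those of Srsf7 were 80603530, 80603824 and 80604628 with 1 and 2 each. In Srsf7 single positions reached 3 cDNAs in replicate 1 and 4 in replicate 2, but not the same ones.

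The share of exact nucleotides that recurred between the replicates ranged widely between the genes, on few positions. In Srsf3, 28 of 118 replicate 1 positions were also listed in replicate 2, 23.7% (exact binomial interval 16.4% to 32.4%). In Srsf2 it was 22.7% (14.8% to 32.3%), in Srsf1 15.9% (7.88% to 27.3%) and in Srsf7 12.7% (5.27% to 24.5%). In Srsf6 it was 3 of 60, 5.00% (1.04% to 13.9%). Over all positions of the libraries the share was 5.02%. Dense coverage alone raises such shares: replicate 2 listed 27.6% of the nucleotides in the strongest stretch of Srsf3, where 41.1% of the replicate 1 positions recurred (28.1% to 55.0%). Outside that stretch 5 of 62 recurred, 8.06%, where replicate 2 listed 1.84% of the nucleotides.

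No difference between the replicates was detectable for any of the 5 genes. Replicate 1 was set against replicate 2 with a two-sided exact binomial test on the library totals, adjusted by Benjamini-Hochberg over 13925 features (all 10 kb windows with at least 50 cDNAs, and the 5 genes), of which 0.0934% were called at a 5% false discovery rate. Srsf6 had the largest log2 ratio of replicate 1 to replicate 2, 0.39 (95% interval -0.07 to 0.83, p = 0.0890, adjusted p = 0.968, exact binomial test). Srsf2 had 0.30 (-0.05 to 0.64) and the smallest unadjusted p, 0.0827 (exact test), so 0 of 5 had an unadjusted p under 0.05, where 5.57% of all features had one. The log2 ratio was 0.06 for Srsf1 (-0.37 to 0.48), -0.11 for Srsf7 (-0.56 to 0.32) and -0.16 for Srsf3 (-0.46 to 0.13). Nothing in the labels tells if these were separate cultures, so the spread between them may be technical.

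The other libraries had higher CPM than the replicates on Srsf1, Srsf2, Srsf6 and Srsf7, but on Srsf3 no such difference passed the test. On Srsf1 the other libraries had 230 cDNAs, 202 CPM, against 79.7 CPM in replicate 1 and 76.3 CPM in replicate 2. On Srsf6 they had 186 cDNAs, 163 CPM, against 77.3 and 59.01 CPM in the replicates. On Srsf2 they had 290 cDNAs, 255 CPM, against 126 and 102 CPM. On Srsf7 they had 179 cDNAs, 157 CPM, against 72.4 and 78.1 CPM. In each of these 4 genes the other libraries lay above both replicates by more than the replicates differed from each other. On Srsf3 they had 228 cDNAs, 200.3 CPM, against 162 and 181 CPM, above both replicates by about as much as these differed.

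As ratios to the pooled replicates, these were 2.62-fold for Srsf1 (95% interval 2.17 to 3.15), 2.56-fold for Srsf6 (2.08 to 3.14), 2.34-fold for Srsf2 (1.99 to 2.75) and 2.05-fold for Srsf7 (1.68 to 2.50). For Srsf3 the ratio was 1.14-fold (0.971 to 1.33). The exact binomial test gave adjusted p = 2.95e-22 for Srsf1, 1.80e-17 for Srsf6, 7.08e-23 for Srsf2, 6.57e-11 for Srsf7 and 0.226 for Srsf3, with Benjamini-Hochberg adjustment over 21846 windows and genes. The call on Srsf3 depended on how often a position was counted: with each position counted once its log2 ratio was 0.41 and it was called (adjusted p = 0.00560, exact binomial test). Counting once took 540 cDNAs of the deeper, pooled replicates to 421 positions, and 228 of the other libraries to 212. How far unequal depth at a dense site sets this rise was not tested. All p-values here cover counting error only, and they were low for many windows. Of all features, 14.5% were called higher in the other libraries, and 27.9% were called in either direction. The median log2 ratio of the 5 genes was 1.23, beside -0.12 over all features. The ratio was lower than that of Srsf1 in 94.5% of windows, of Srsf6 in 94.1%, of Srsf2 in 92.7%, of Srsf7 in 90.1% and of Srsf3 in 64.6%. The pool gives no spread between its 3 libraries, and whether 1 of them carries the difference cannot be told. Any difference in cells, transfection or batch goes with the set of libraries, so these cannot be told apart.

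**Figure D3:**
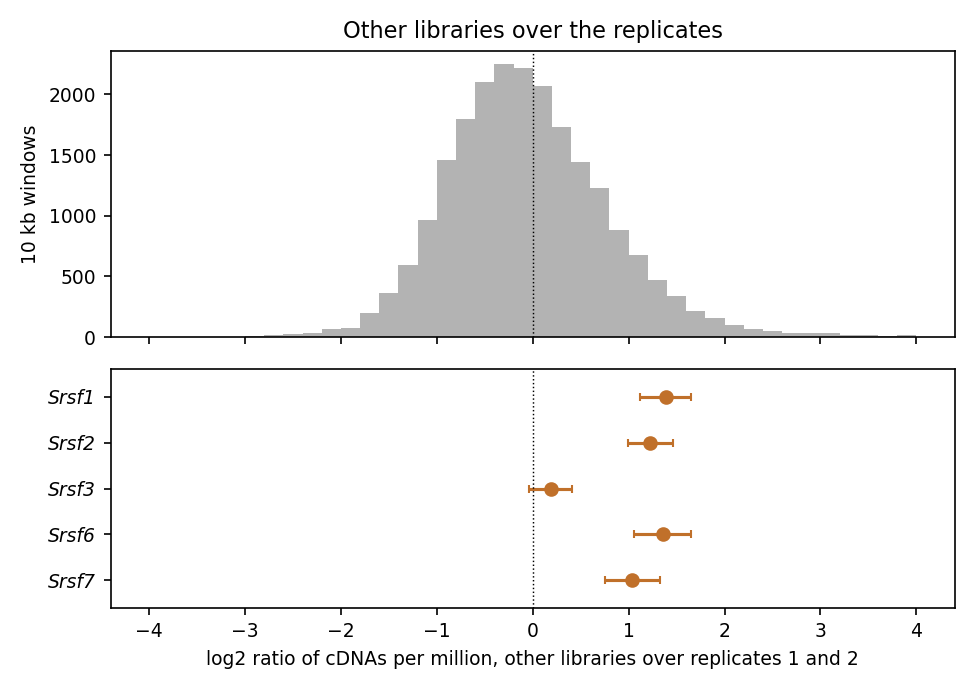
Log2 ratio of CPM in the other libraries over replicates 1 and 2 (x axis), as a count of 10 kb windows above (y axis, windows with at least 50 cDNAs and a ratio within the axis) and for the 5 genes below, with points for the ratios and bars for exact 95% intervals. Srsf1, Srsf2, Srsf6 and Srsf7 lie between 1.04 and 1.39, and Srsf3 at 0.19 with an interval that includes 0.

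The smaller ratio of Srsf3 was tested directly. Its log2 ratio was lower by 1.20 than that of Srsf1 (95% interval of Srsf1 minus Srsf3 0.86 to 1.54, two-sided Fisher's exact test on the cDNAs, p = 8.20e-12). The log2 ratio of Srsf2 minus that of Srsf3 was 1.04 (0.72 to 1.36, Fisher's exact p = 1.31e-10). That of Srsf3 minus that of Srsf6 was -1.17 (-1.53 to -0.80, exact p = 4.73e-10), and that of Srsf3 minus that of Srsf7 was -0.85 (-1.21 to -0.49, exact p = 3.70e-06). In the 6 pairs among the other 4 genes every interval included 0, the smallest exact p being 0.0787 for Srsf1 and Srsf7. All 10 pairs were computed, the p-values are not adjusted, and they compare pools of libraries on counting error.

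Where along the genes the other libraries stood higher was read from 500 nt bins, tested over all 2621 such bins of the genome with at least 50 cDNAs. Of these, 10.9% were higher and 38% lower in the other libraries at a 5% false discovery rate. Few bins of the genes were tested: 3 of the 13 with a cDNA in Srsf1, 6 of 7 in Srsf2, 3 of 13 in Srsf6, 3 of 16 in Srsf7 and 4 of 22 in Srsf3. Of these 19 bins 14 were higher and 0 lower, but the minimum is on the sum of both sides, so some bins entered only through the other libraries, where they are high. With at least 50 cDNAs in the replicates alone, a minimum chosen after the data were seen, 8 bins were tested and 4 were higher, 3 of 3 in Srsf2, 1 of 1 in Srsf1, 0 of 3 in Srsf3 and 0 of 1 in Srsf7, and none was left in Srsf6. Of all bins under that minimum 6.39% were higher and 55.5% lower. One of the bins that entered through the other libraries lay in Srsf1 on chromosome 11 from 87862001 to 87862500, with 47 cDNAs in the other libraries against 5 and 9 in replicates 1 and 2. A single 100 nt bin inside it, from 1500 nt, held 23 cDNAs of the other libraries, against 0 and 4 in the replicates. Likewise the strongest bin of Srsf7 in the other libraries, at 2400 nt, held 19 cDNAs against 2 and 6, and that of Srsf6, at 1600 nt, held 17 against 4 and 5. These single bins were chosen after their values were seen. In Srsf2 the strongest bin was the same in all 3 sets, with 32 cDNAs in the other libraries and 12 and 33 in the replicates.

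The shape of the Srsf3 profile was compared between the other libraries and replicate 1. This sets 1 library against a pool with no spread between its libraries, so its p-values cover counting error only. In the strongest 500 nt stretch the other libraries held 69 of their 228 cDNAs, 30.3% (exact binomial interval 24.4% to 36.7%), against 49.2% in replicate 1 (40.4% to 58.1%, two-sided Fisher's exact p = 0.000437, not adjusted). Replicate 2 is left out here because it chose the stretch. The other 4 genes had Fisher's exact p-values from 0.0930 to 0.747 in the same comparison. Within the Srsf3 stretch the other libraries had 60.6 CPM against 79.7 CPM in replicate 1, a log2 ratio of -0.40 (-0.91 to 0.12). Outside it they had 139.7 CPM against 82.2 CPM in replicate 1, 1.70-fold (log2 ratio 0.77, 0.34 to 1.20). Outside their own stretches the same ratio was 1.79-fold for Srsf2, 1.98-fold for Srsf6, 2.48-fold for Srsf7 and 2.60-fold for Srsf1, and these were not tested against Srsf3. The middle 50% of the Srsf3 cDNAs of the other libraries covered 1319 nt, against 622 and 667 nt in the replicates.

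**Figure D4:**
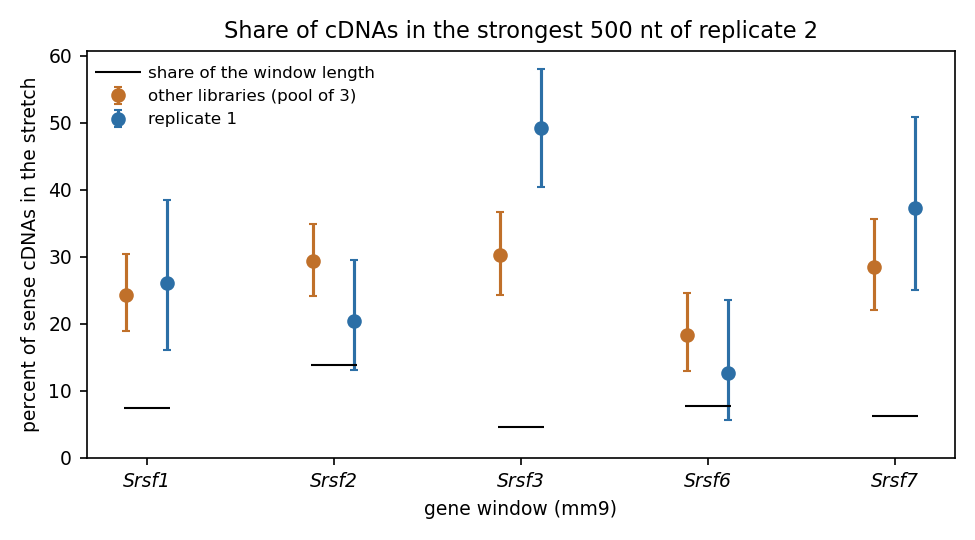
Percent of a gene's sense cDNAs (y axis, from 0) that fell in the 500 nt stretch that was strongest in replicate 2, for each gene (x axis), in the other libraries and in replicate 1, with exact 95% binomial intervals and a dash for the stretch's share of the window. Srsf3 has the widest gap, 30.3% in the other libraries against 49.2% in replicate 1.

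The genes differ in how far their RNA sequences occur in other genes, which was read from the GENCODE M21 transcripts (GRCm38, another build). That build was used for names, sequences and exon lengths and not for positions. All 5 genes (ENSMUSG00000018379.17 for Srsf1, ENSMUSG00000034120.18 for Srsf2, ENSMUSG00000071172.13 for Srsf3, ENSMUSG00000016921.14 for Srsf6 and ENSMUSG00000024097.11 for Srsf7) have the same chromosome and strand there as the windows. Each has annotated transcripts of the nonsense-mediated decay type, 2 each for Srsf1, Srsf2 and Srsf3 and 1 each for Srsf6 and Srsf7, and transcripts with a retained intron. For Srsf3, 94.2% of the 30 nt sequences of its coding region also occurred in transcripts of other genes. Over all its transcripts, introns kept in some of them included, the share was 14.2%. Gm12355 and the processed pseudogene Gm9761 shared the most of these sequences of all transcripts. For Srsf2 the shares were 41.0% of the coding region and 23.2% of all, the latter mostly shared with Mettl23 and Mfsd11. Which genes share the coding parts was not counted. For Srsf1 they were 9.17% and 1.24%, for Srsf7 11.6% and 2.57%, and for Srsf6 0 in both. The search took both strands and did not compare positions, so another gene that overlaps at the same place is counted as well. Such overlap does not give a read several matches. It was not told apart from copies elsewhere, for Srsf2 with Mettl23 and Mfsd11 in particular.

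The sources used here do not say how reads with several matches were treated. The counts of Srsf3 are uncertain in its shared parts, and those of Srsf2 as far as its shared parts are copies elsewhere. How far cDNAs are missing or added there was not tested. Exons, introns and untranslated regions were not placed on the mm9 windows, so it was not determined whether the 500 nt stretches of Srsf3 and Srsf7 cover their poison exons, and no sequence under a binding position was read. The same holds for the other SR genes and for the cardiomyocyte markers, which are not analysed here.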

How the data were processed

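SRSF3-GFP iCLIP of 2 replicates was analysed. The authors' deposited tracks give each nucleotide a signed score: the number of cDNAs, with a minus for the minus strand. Per the file headers these are cDNA hits, and the values carry no scaling by depth. Hits are on mm9 with annotation Ensembl 59, per the file headers, and reads were mapped with Bowtie 0.10.1, per the submitters' processing notes. Collapse of duplicates, multiple matches and filters are not given in the sources used here. The merged track sums 5 libraries. Of these, 3 carry 2 library identifiers other than that of the replicates, and their part is the merged score minus both replicates, which was never below 0. Depth was 815414 and 2253688 cDNAs in the replicates, so a count of 0 (limit 3 cDNAs) allows 3.68 and 1.33 CPM.

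The genes, their windows and lists were chosen with earlier results of these data known. All 5 genes are named, with their 3 positions highest in the lower replicate and their strongest 500 nt. Tests were two-sided exact binomial (scipy 1.17.1, Benjamini-Hochberg in statsmodels 0.14.6) over windows with at least 50 cDNAs. Alternatives were the library total, positions counted once, window ends, minimum counts, bin sizes and each replicate left out. The planned named genes of like pattern, other SR genes and cell type markers need an mm9 annotation and are not reported.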

Additional observations from a re-analysis of the deposited data

Results flagged for a closer look

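The merged track holds a signal outside the 2 replicates on all 5 genes, above the 2.64 CPM that a count of 0 allows in the 3 other libraries. It was 202 CPM on Srsf1, 255 CPM on Srsf2, 200.3 CPM on Srsf3, 163 CPM on Srsf6 and 157 CPM on Srsf7. At 89.1% of the replicate positions in these genes the merged value equalled the sum of the replicates, against 98.4% over all positions. Dense coverage alone lowers such a share: the other libraries listed 2.79% of the nucleotides in these windows. How much of the gap this makes up was not tested. In no group were there enough samples to ask whether 1 stood apart.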

How the results depend on the processing

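Calls on the 5 genes held except for Srsf3 in the other libraries. Its log2 ratio of 0.19 became 0.41 with each position counted once, where it was called (adjusted p = 0.00560, exact binomial test). In an alternative chosen after seeing the data, without the strongest 500 nt, it was 0.61 and called (adjusted p = 0.000344, exact binomial test). That stretch was chosen as the strongest of replicate 2, which is part of this ratio, so leaving it out favours a higher ratio. No conclusion is drawn from that call. Leaving out a replicate gave 0.15 to 0.31, not called. The other 4 genes were called under every alternative, and in the comparison of the replicates 0 of 5 were. Windows called between the replicates numbered 23 with each position counted once, against 13. Windows called in the other libraries numbered 8636 of those with at least 20 cDNAs, 3508 of those with at least 100 and 2713 to 5195 with a replicate left out, against 6087. With bins of 250 nt, 9 of 12 tested bins of the genes were called, against 14 of 19 with bins of 500 nt. The minimum is on the sum of both sides in both, and the share called over all bins of 250 nt was not counted. No conclusion is drawn from the 250 nt bins. With the minimum of 50 cDNAs on the replicates alone 4 of 8 bins of 500 nt were called, where 6.39% of all bins were higher and 55.5% lower.

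Densities depended on the window ends. Extended by 500 nt they were 10.2 CPM per kb for Srsf1, 25.1 for Srsf2 and 8.38 for Srsf7. Trimmed by 500 nt they were 12.7 for Srsf1, 39.4 for Srsf2, 16.8 for Srsf3 and 10.7 for Srsf7. Srsf1 had 11.2 without its 3 named positions, and Srsf3 had 14.2 positions per 1000000 positions and kb with each counted once. The antisense share was 2.32% for Srsf1 in the trimmed window and 2.50% for Srsf2 in the extended one. The share of bins that held 50% of the cDNAs followed bin size: with 50 nt it was 10.7% for Srsf1, 15.1% for Srsf2, 4.52% for Srsf3, 11.8% for Srsf6 and 6.52% for Srsf7, and with 200 nt 17.6%, 26.3%, 5.36%, 19.7% and 9.76% in the same order. The ranks among windows of equal length stayed within 1.5 times under both alternatives. No paired analysis was possible because the other libraries are a pool with no replicate numbers. Depth limits single positions: in replicate 2, 84.0% of those in Srsf3 to 91.8% of those in Srsf1 held 1 cDNA.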
